A study of Canis lupus familiaris with 186 samples.

Results

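The genes of MHC class I antigen processing were examined in 186 primary osteosarcomas of pet dogs. The group holds 10 genes, chosen by name from the 37952 genes of the deposited table: B2M, TAP1, TAP2, TAPBP, PSMB8, PSMB9, PSMB10, NLRC5, ERAP1 and DLA-88. All 10 were found in the table and all 10 passed the filter on low counts, which was applied to the tumors together and kept 13422 genes. mRNA was sequenced from frozen primary tumors of dogs enrolled in the trials COTC021 (93 tumors) and COTC022 (93 tumors). The dogs had osteosarcoma of a limb without visible metastasis, they were of varied age, breed and sex, and every biopsy was taken before any treatment. The dogs were later given carboplatin with or without sirolimus, and the labels do not tie a trial name to either regimen. No normal tissue was among the samples, and the prognosis clusters, disease free interval and survival of the dogs are not analysed here.

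MHC class I molecules show peptides from inside the cell to CD8+ T cells. Proteins are cut by the proteasome, the peptides are pumped into the endoplasmic reticulum by the TAP transporter, trimmed there by aminopeptidases such as ERAP1, and loaded with the help of tapasin (TAPBP) onto a class I heavy chain bound to beta-2-microglobulin (B2M). PSMB8, PSMB9 and PSMB10 are the catalytic subunits of the immunoproteasome and take the places of the constitutive subunits PSMB5, PSMB6 and PSMB7. DLA-88 encodes a classical, highly polymorphic class I heavy chain of the dog, and NLRC5 is the transactivator of class I genes. In tumors, low class I expression is known as a way of escaping T cells, and interferons are known inducers of most of these genes.

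In the genome build of the deposited counts, UU_Cfam_GSD_1.0, 6 of the 10 genes lie on chromosome 12. TAP2 (2562598 to 2572236), PSMB8 (2574324 to 2577715), TAP1 (2578932 to 2587126) and PSMB9 (2587464 to 2593086) follow each other, with 2087, 1216 and 337 bases between neighbors. TAPBP (2895118 to 2906650) and DLA-88 (1031738 to 1034937) lie on either side of that block. The other 4 genes are elsewhere: B2M on chromosome 30 (11616856 to 11621737), PSMB10 on chromosome 5 (82146923 to 82149454), NLRC5 on chromosome 2 (58550596 to 58630406) and ERAP1 on chromosome 3 (12916519 to 12958941). All 10 are annotated as protein coding. The counts are sums over whole genes.

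Library totals lay between 6587631 and 27420857 counts (median 10797162). In 50 libraries a doubled separator mark stands in the deposited column name, and these, called D libraries here, were deeper (median total 19440449.5) than the other 136, called S libraries (median 9851681). Of the 50, 18 were from COTC021 and 32 from COTC022, so results were also computed within each set of libraries. No pair of libraries was identical. All 8 osteoblast markers passed the filter, and their summed level ranged from 1404 to 232750 CPM (counts scaled to library size). Cytotoxic lymphocyte markers were scarce. Their 14 markers summed to between 4.98 and 8919 CPM (median 36.3), 7 of them passed the filter, and CD8A had no count in 35 tumors. The 10 macrophage markers all passed and summed to between 124 and 9686 CPM (median 1118).

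Levels are given as CPM after TMM normalization and are not divided by gene length, so they can be compared between tumors but not between genes. B2M, the light chain shared by all class I molecules, ranged from 74.8 through a median of 284 to 1956 CPM in COTC021, and from 59.5 through 319 to 3528 CPM in COTC022. DLA-88 ranged from 50.2 through 438 to 5892 CPM in COTC021 and from 45.4 through 400.4 to 4288 CPM in COTC022. The ranges of both chains overlapped between the trials. No bulk sample was without counts for either gene, with lowest raw counts of 435 for B2M and 360 for DLA-88. Counts from cancer cells and from other cells of a sample cannot be told apart. For DLA-88, 98.9% of the deposited values were not whole numbers, against 0% for each of the other 9 genes. The counting had thus divided reads between the DLA-88 row and other rows, and with related class I loci and many alleles in dogs, DLA-88 levels are uncertain. The part of alleles in the DLA-88 spread was not tested.

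The transporter genes varied less. TAP1 ranged from 26.8 through 67.0 to 440.2 CPM in COTC021 and from 10.7 through 62.8 to 668 CPM in COTC022. TAP2, the other chain of the transporter, ranged from 26.7 through 62.0 to 218 CPM and from 20.9 through 61.8 to 240.3 CPM in the same order. The middle 80% of all tumors spanned 3.03-fold for TAP2 and 4.33-fold for TAP1. TAPBP, which holds the heavy chain at the transporter, ranged from 142 through 272 to 1116 CPM in COTC021 and from 74.6 through 232 to 699 CPM in COTC022, and its middle 80% spanned 3.41-fold. ERAP1 ranged from 35.3 through 122 to 472 CPM and from 18.3 through 105 to 350.4 CPM, with a middle span of 3.38-fold.

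PSMB8, PSMB9 and NLRC5 varied more, while the spread of PSMB10 was near that of TAP1. PSMB8 ranged from 4.36 through 17.4 to 180.2 CPM in COTC021 and from 1.38 through 20.6 to 323 CPM in COTC022, and the middle 80% spanned 8.10-fold. PSMB9 ranged from 2.08 through 20.3 to 158 CPM and from 0.518 through 23.3 to 266 CPM, with a middle span of 7.47-fold. PSMB10 ranged from 2.93 through 14.1 to 109 CPM and from 5.16 through 16.1 to 149 CPM, with a middle span of 4.26-fold. NLRC5 ranged from 2.82 through 19.3 to 185 CPM and from 2.69 through 17.9 to 464 CPM, with a middle span of 7.28-fold. The SD on the log2 scale was 1.33 for DLA-88, 1.32 for PSMB8, 1.3 for PSMB9 and 1.19 for NLRC5. It was 0.64 for TAP2, close to the median over all genes tested (0.62).

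**Figure D1:**
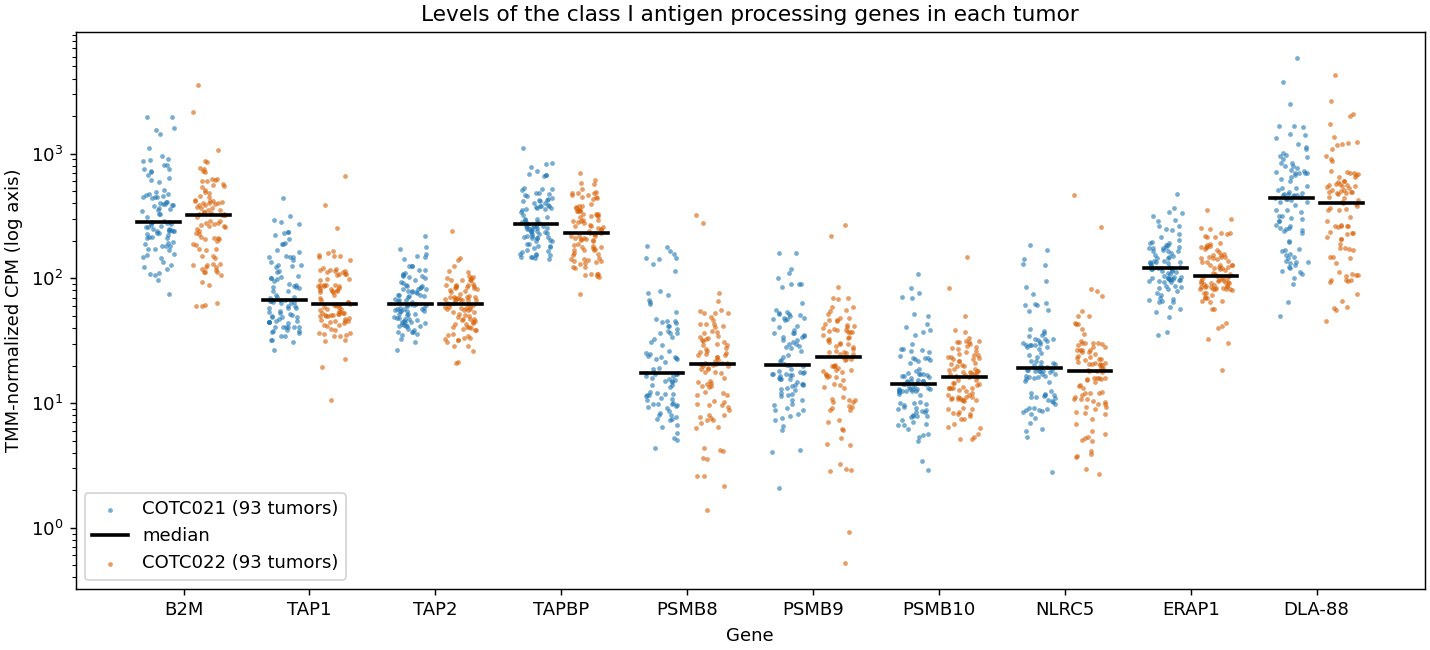
Level of each gene in each of the 186 tumors (TMM-normalized CPM, log axis). Each point is 1 tumor, blue for COTC021 and orange for COTC022, and black bars are medians. The trials overlap for every gene, the spread is widest for PSMB8, PSMB9, NLRC5 and DLA-88, and the lowest values of PSMB8 and PSMB9 are from COTC022.

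2 tumors stood at the top of several genes. COTC022 tumor 64 had the highest B2M (11.7 times the median), PSMB8 (17.0 times) and NLRC5 (24.7 times) of the 186, and COTC022 tumor 84 had the highest TAP1 (10.1 times), TAP2 (3.88 times), PSMB9 (11.9 times) and PSMB10 (10.2 times). TAPBP was not raised to that extent in either, at 1.36 and 2.24 times its median, nor was ERAP1, at 1.94 and 2.55 times. In tumor 64, TAP2 was at 2.26 times its median. Tumor 64 also ranked first of 186 on the lymphocyte and on the macrophage marker score, and tumor 84 ranked 3 and 6 of 186. Both are D libraries. Results were therefore also computed without them, and they are named below where they decide a result.

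The trial was the only group that the labels give, and levels of the 10 genes were compared between COTC022 and COTC021 with limma-voom, with p-values adjusted over all 13422 genes. Of all genes, 2 were called (0.0149%), and none of the 10 was among them. Unadjusted p-values under 0.05 were found for 1332 genes, TAPBP and ERAP1 included, while edgeR called 129 genes and none of the 10. DESeq2 called 71 genes and none of the 9 members it gave an adjusted p for (all but NLRC5). The TAPBP difference was -0.32 on the log2 scale (SE 0.10, adjusted p = 0.24, limma). The ERAP1 difference was -0.21 (SE 0.11, adjusted p = 0.49, limma), and PSMB10 differed by 0.10 (SE 0.13). The 10 genes had a median difference of -0.21, against 0.0026 over all genes tested. Intervals of 95% allowed a B2M difference between -0.50 and 0.09 and a DLA-88 difference between -0.61 and 0.14.

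The median trial difference over the 10 genes was -0.36 in S libraries and 0.30 in D libraries. Over all genes these medians were 0.00036 and 0.0085. The sign was opposite for all but TAPBP and ERAP1, though some values lay near 0, such as PSMB10 in S and TAP2 in D libraries. The share of all genes with opposite signs was not counted. In the 136 S libraries the difference was -0.67 for NLRC5 (SE 0.19), -0.56 for PSMB8 (SE 0.22) and -0.43 for B2M (SE 0.17), and in the 50 D libraries it was 0.56 for NLRC5 (SE 0.39), 0.56 for PSMB8 (SE 0.40) and 0.57 for B2M (SE 0.31). None of these passed the adjusted threshold in limma. Of the marker lists, those of lymphocytes, macrophages, the B lineage, osteoclasts, endothelium and skeletal muscle had the same order. Osteoblast and chondrocyte markers had the opposite order, and adipocyte markers were higher in COTC022 in both kinds. In S libraries the median summed level of the lymphocyte markers was 45.5 CPM in COTC021 and 35.2 CPM in COTC022. In D libraries it was 25.8 CPM and 37.9 CPM. Macrophage markers had 1206 and 1123 CPM in S, and 834 and 1293 CPM in D libraries. Osteoblast markers had 44037 and 50881 CPM in S, and 63866 and 41537 CPM in D libraries. The part of cell content in the trial differences was not tested. The libraries of both kinds differed in 573 genes (4.27%), none of them among the 10, for which 0 had an unadjusted p under 0.05 in limma and 2 in edgeR, which called 692 genes and none of the 10.

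The 10 genes were then related to the GS-1 score. GS-1 is a gene signature from earlier work that compared canine osteosarcomas with reference osteoblasts, and the study applied it to these tumors. Its score here was the mean z-score of 27 genes, scaled to an SD of 1 over the 186 tumors. None of the 10 genes is in GS-1. With the trial as a covariate, all 10 rose with the score at an adjusted p under 0.05 (limma), where 22.2% of the 13395 genes outside GS-1 rose and 48.4% changed in either direction. The median slope was 0.68 log2 units per SD over the 10 genes and -0.019 over all genes. At a stricter threshold, a slope of at least 1.5-fold per SD, 6 of the 10 passed, against 3.81% of all genes. The score is itself a measure of immune cell content, with Pearson's r of 0.90 to the macrophage score and 0.81 to the lymphocyte score. All 10 macrophage markers (2 of them in the score) and all 7 lymphocyte markers that passed the filter also rose with it, and 6 of 8 osteoblast markers fell. Their part in the slopes of the 10 genes was not tested by this fit. In bulk tumors, more cells of a type and more RNA per cell cannot be told apart.

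The slopes differed in size between the genes, also within a step of the pathway. PSMB8 had the steepest, 1.07 log2 units per SD (SE 0.05), or 2.09-fold. NLRC5 followed with 0.91 (SE 0.05), B2M with 0.82 (SE 0.05), PSMB9 with 0.76 (SE 0.07), DLA-88 with 0.74 (SE 0.08) and PSMB10 with 0.62 (SE 0.05). Among these genes the 95% interval of each overlapped that of the next, so the order of neighbors is not settled. Those of B2M, PSMB9 and DLA-88 all overlapped, and that of PSMB10 (0.53 to 0.72) overlapped that of TAP1. TAP1 rose by 0.51 (SE 0.05), its partner TAP2 by 0.21 (SE 0.04), and ERAP1 by 0.19 (SE 0.05) and TAPBP by 0.16 (SE 0.05). The TAP1 interval (0.41 to 0.62) lay above that of TAP2 (0.12 to 0.30). In each trial alone, and in each kind of library alone, the slopes of B2M, DLA-88, NLRC5, PSMB8, PSMB9, PSMB10 and TAP1 passed the threshold. The other 3 were less stable. TAPBP did not pass in COTC022 (slope 0.12, adjusted p = 0.19) or in either kind of library alone, ERAP1 not in COTC021 (0.16, adjusted p = 0.097) or in D libraries (0.27, adjusted p = 0.055), and TAP2 not in COTC022 (0.14, adjusted p = 0.076; all limma).

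A difference of the slopes between the trials was not detected. Of 13395 genes, 0 (0%) had an interaction of trial and score at an adjusted p under 0.05 by limma and 2 by edgeR, with 370 genes at an unadjusted p under 0.05, and PSMB10 was the only one of the 10 there. Its slope was 0.73 (SE 0.07) in COTC021 and 0.52 (SE 0.06) in COTC022, and the difference of -0.22 (SE 0.09) had an adjusted p of 0.9995 (limma). Without COTC022 tumors 64 and 84, 28 genes had such an interaction, none of the 10 among them. All 10 slopes on the score still passed without these 2 tumors.

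The rest of the pathway gives the background to these slopes. Of the 14 subunits of the constitutive proteasome core, 0 rose with the score and 3 fell, with a median slope of -0.058. PSMB5, PSMB6 and PSMB7, the subunits replaced in the immunoproteasome, had slopes of -0.060 (SE 0.028), -0.060 (SE 0.038) and -0.070 (SE 0.031), and PSMB7 was called (adjusted p = 0.048, limma). The log2 ratio of PSMB8 to PSMB5 therefore varied widely, with an SD of 1.45 against 0.38 for PSMB5 alone, and Spearman's rho of the ratio to the score was 0.75. For PSMB9 to PSMB6 rho was 0.57 and for PSMB10 to PSMB7 it was 0.62. Of 8 proteasome activators and assembly factors, PSME1 (slope 0.26) and PSME2 (0.29), the subunits of the interferon-inducible PA28 activator, rose and 2 assembly chaperones fell.

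Of 8 other genes of peptide loading and editing, 3 rose and 3 fell. ERAP2, the second trimming peptidase, rose by 1.03 (SE 0.07), against 0.19 for ERAP1, and TAPBPL, a tapasin-related peptide editor, rose by 0.64 (SE 0.06), against 0.16 for TAPBP itself. The general chaperones of the endoplasmic reticulum did not rise. CALR fell by 0.14 (SE 0.04), HSPA5 fell by 0.13 (SE 0.04) and PDIA3 had a slope of -0.059 (SE 0.035). Of the other class I loci, all 4 that passed the filter rose: DLA-79 by 1.05, DLA-64 by 0.63, HFE by 0.39 and FCGRT, the neonatal Fc receptor, by 0.19. Reads may be divided between the rows of related class I loci.

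NLRC5 works through a complex of DNA-binding proteins that it shares with the class II transactivator CIITA. CIITA rose by 1.24 (SE 0.05), more steeply than NLRC5. RFX5 rose by 0.25 (SE 0.03), while RFXAP (-0.16), NFYA (-0.13), NFYB (-0.089) and NFYC (-0.19) fell, so that 2 of the 9 genes of that list rose and 4 fell. Of 8 genes of interferon gamma signaling that passed the filter, 8 rose, among them IRF1 by 0.75 and IRF8 by 1.23. IFNG itself did not pass the filter. All 7 class II genes that passed rose, with a median slope of 1.40, and 2 of the 7 are in the GS-1 score.

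**Figure D2:**
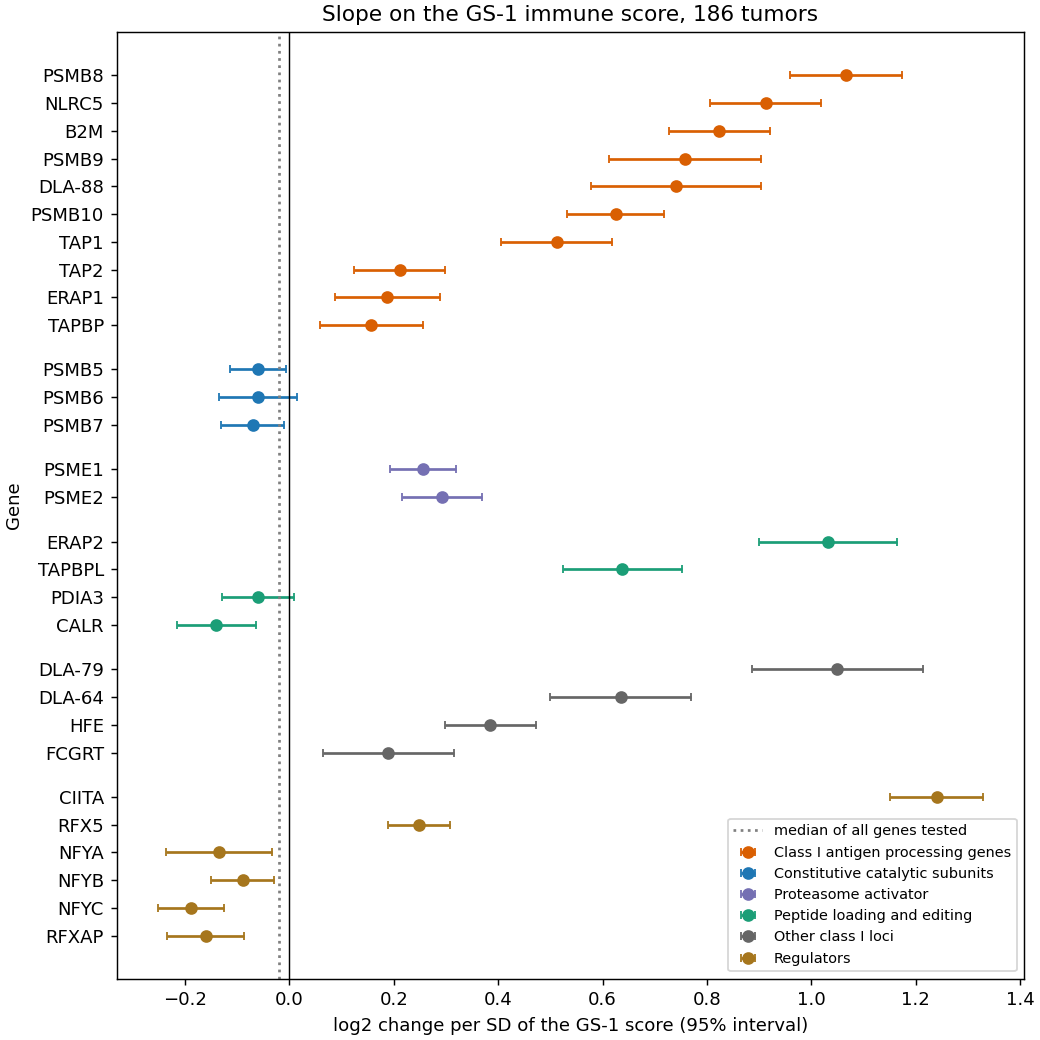
Slope of each gene on the GS-1 score (log2 change per SD, points) with its 95% interval, over 186 tumors with the trial as covariate. The 10 class I genes lie to the right of 0, from 0.16 for TAPBP to 1.07 for PSMB8, while PSMB5, PSMB6 and PSMB7 lie just left of 0, near the median of all genes (dotted line).

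Lymphocytes and macrophages express class I genes themselves, and their marker scores were entered into 1 model. Between the scores Pearson's r was 0.64 (Spearman's rho 0.65), so that their slopes are separated only in part. With the macrophage score held constant, 9 of the 10 genes rose with the lymphocyte score (7.4% of the 13415 genes outside that list rose), all but ERAP1. The slope was 0.75 for NLRC5 (SE 0.07), 0.73 for PSMB8 (SE 0.06), 0.59 for PSMB10 (SE 0.06) and 0.54 for TAP1 (SE 0.07). With the lymphocyte score held constant, 5 of the 10 rose with the macrophage score (17.9% of 13412 genes rose): PSMB8 (0.48, SE 0.07), B2M (0.46, SE 0.06), DLA-88 (0.33, SE 0.10), PSMB9 (0.30, SE 0.10) and NLRC5 (0.24, SE 0.07). For TAP1 the macrophage slope was 0.083 (95% interval -0.043 to 0.21), for TAP2 -0.0060 (-0.12 to 0.10) and for TAPBP 0.012 (-0.11 to 0.14). edgeR called 8 of 10 on the lymphocyte score, without TAPBP (0.17, adjusted p = 0.071), and 4 of 10 on the macrophage score, without DLA-88 (0.24, adjusted p = 0.058). Without COTC022 tumors 64 and 84 the lymphocyte slope of TAPBP lost its call in limma too (0.19, adjusted p = 0.094), which left 8 of 10, and the number of all genes called on that score fell from 1788 to 847.

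The 10 genes were also related to scores of interferon target genes. The interferon gamma target list gave 6 genes and the type I interferon target list 17 genes that passed the filter, and Pearson's r between both scores was 0.56. With both in 1 model, 7 of the 10 rose with the interferon gamma target score (16.1% of 13416 genes rose) and 10 of 10 with the type I interferon target score (9.57% of 13405 genes rose). NLRC5 (0.82, SE 0.05), PSMB8 (0.79, SE 0.05) and PSMB10 (0.62, SE 0.05) had the steepest slopes on the first score. The TAPBP slope there was -0.018 (95% interval -0.11 to 0.076). TAP2 (0.096, adjusted p = 0.070) and ERAP1 (0.071, adjusted p = 0.40) were not called by limma. On the lymphocyte score, too, NLRC5, PSMB8 and PSMB10 were steepest, and TAP2, TAPBP and ERAP1 had the lowest slopes. The lymphocyte score had Pearson's r of 0.86 to the interferon gamma target score and 0.44 to the type I score. Slopes on the lymphocyte and interferon gamma target scores are therefore not independent. The part of lymphocyte content in the interferon gamma target slopes was not tested. On the type I score TAPBP rose by 0.46 (SE 0.05) and TAP2 by 0.37 (SE 0.04), while PSMB10, at 0.14 (SE 0.05, adjusted p = 0.049, limma), was the least steep. PSMB10 and TAPBP thus had the opposite order of both slopes, with intervals that did not overlap on either score. edgeR called TAP2 on the interferon gamma target score too (8 of 10), and it called 9 of 10 on the type I score, without PSMB10 (0.11, adjusted p = 0.12).

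**Figure D3:**
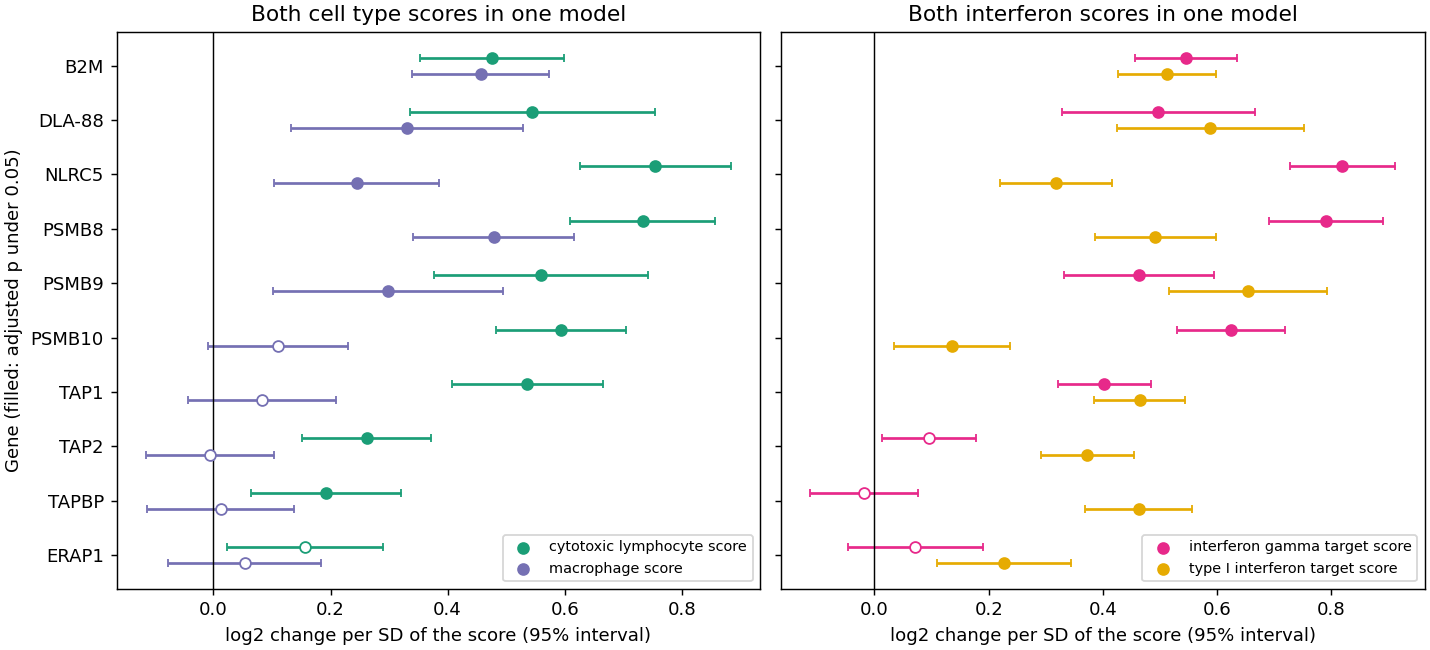
Slopes of the 10 genes (log2 change per SD, 95% intervals, 186 tumors) on the lymphocyte and macrophage scores entered together (left) and on both interferon target scores entered together (right). Filled points had an adjusted p under 0.05. TAP1, TAP2, TAPBP, ERAP1 and PSMB10 have open points for macrophages, and TAP2, TAPBP and ERAP1 have open points for the interferon gamma target score.

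The 10 genes were correlated with each other across tumors. Tumors share immune cell content and normalization, so these values are a description. All 45 pairs had Spearman's rho above 0 over 186 tumors, with a median of 0.58, and 30 pairs had rho of at least 0.5. The median rho of each gene to all genes outside the 10 lay between -0.029 (PSMB8) and 0.0003 (ERAP1). Between 0.075% (DLA-88) and 2.27% (ERAP1) of those outside genes had a rho as high as the gene's median to the other 9. The closest pair was B2M and PSMB8, on different chromosomes, with rho 0.91 (Pearson's r 0.91, and 0.90 without the 2 tumors farthest from the B2M median). B2M and NLRC5 had rho 0.84, PSMB8 and PSMB9 0.82, and NLRC5 and PSMB8 0.81. For the transporter and tapasin, rho was 0.80 for TAP1 and TAP2, 0.78 for TAP1 and TAPBP, and 0.79 for TAP2 and TAPBP. TAP1 was about as close to PSMB9 (0.80), PSMB8 (0.78), B2M (0.75) and DLA-88 (0.70), and its median rho to the other 9 genes, 0.75, was the highest of the 10. TAP2 and TAPBP were less close to NLRC5 (0.39 and 0.38) and to PSMB10 (0.21 and 0.22). ERAP1 stood apart, with a median rho of 0.32 to the other 9 genes and with 0.016 to PSMB10 and 0.18 to DLA-88. Within each trial and each kind of library, the median over pairs lay between 0.55 and 0.62, and rho of B2M and PSMB8 was 0.91 in each.

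After removal of the GS-1 score and the trial from each gene, the median rho over pairs was 0.50, with 44 of 45 above 0. For B2M and PSMB8 it was 0.72, while TAP1 with TAP2 (0.81), TAP1 with TAPBP (0.79) and TAP2 with TAPBP (0.78) had values near the earlier ones. PSMB10 and ERAP1 had rho -0.12.

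**Figure D4:**
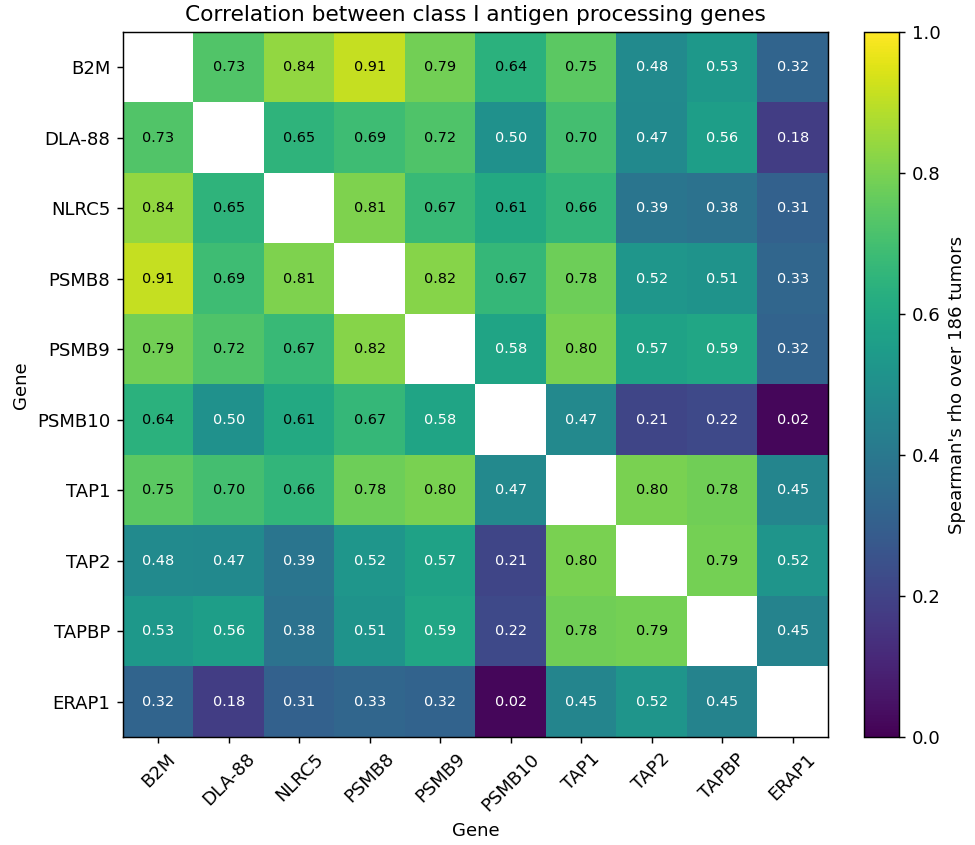
Spearman's rho between each pair of the 10 genes over 186 tumors (TMM log2 CPM), by color and number. B2M, DLA-88, NLRC5, PSMB8 and PSMB9 are bright with each other, TAP2 and TAPBP are brightest with TAP1 and each other, TAP1 is bright with all of these, and the ERAP1 row is dark, from 0.02 with PSMB10 to 0.52 with TAP2.

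For the genes that neighbor each other on chromosome 12, position and correlation were set side by side. PSMB8 and PSMB9, which lie on either side of TAP1, had rho 0.78 and 0.80 to it. Of 13 other genes that passed the filter within 250000 bases of the block, rho to TAP1 ranged from -0.20 for COL11A2 to 0.54 for the class II gene DLA-DQB1, with a median of 0.31. Among those without a class II symbol the highest rho was 0.49, for LOC100856137, and others were BRD2 (0.31) and RING1 (0.17). LOC100856137 lies between DLA-DQB1 and TAP2, and whether it is of class II was not examined. TAPBP, farther from TAP1 than RING1, had 0.78. PSMB8 and B2M, which lie on different chromosomes, had rho 0.91. The part of position in these correlations was not tested.

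Genes outside the 10 with the most similar pattern were sought by rho to the mean z-score of the 10. The 10 closest were IFGGC1 (0.87) and IFGGB2 (0.86), which are named as interferon gamma-inducible GTPases, OASL (0.84) and OAS2 (0.83) of the oligoadenylate synthetase family, GBP1 (0.83), a guanylate-binding protein, ZBP1 (0.83), a sensor of nucleic acids, RNF213 (0.83) and 3 genes with LOC names. OASL and OAS2 are on the type I interferon target list and GBP1 on the interferon gamma target list. For single genes, the closest were SAMD9L for B2M (0.85), GBP1 for PSMB8 (0.88), and IFGGC1 for TAP1 (0.82), PSMB9 (0.78) and DLA-88 (0.69). IFIH1, which encodes the RNA sensor MDA5, was closest to both TAP2 (0.69) and TAPBP (0.67). For ERAP1 the closest gene, TRANK1, reached only 0.53. NLRC5 (0.82) and PSMB10 (0.71) were closest to genes with LOC names, and among named genes to ZBP1 (0.78) and PLAAT4 (0.69).

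Tumors with low values were listed by a rule of size, a level under 0.25 times the gene's median over 186 tumors. They are given as values, with no groups made from them. At least 1 of the 10 genes was that low in 31 tumors (16.7%), 8 from COTC021 and 23 from COTC022, a difference that was not tested. In 17 of them a single gene was low, in 8 tumors 2 genes, in 4 tumors 3 genes and in 2 tumors 5 genes. DLA-88 was low in 17 tumors, PSMB9 in 12, PSMB8 in 10, NLRC5 in 7, B2M in 5, PSMB10 in 2, and TAP1 and ERAP1 in 1 each. TAP2 and TAPBP were low in 0 tumors. DLA-88 was the only low gene in 7 tumors. PSMB9 and DLA-88 were both low in 7 tumors, PSMB8 and DLA-88 in 5, and B2M and DLA-88 in 1. The rule was not applied to all genes, so no background share stands beside these counts. A gene with a wide spread passes such a rule more often. Of all genes tested, 12.3% had a log2 SD as large as that of DLA-88 or PSMB8, and 12.9% as that of PSMB9.

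In 25 of the 31 tumors the GS-1 score was under 0, as in 106 of all 186. The median score was -0.91 in the 31 and -0.17 in all. In COTC022, 25.0% of D and 24.6% of S libraries had a low gene, and in COTC021 11.1% and 8.00%. Low tumors were found in both kinds of library.

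COTC022 tumor 36 was low in 5 genes: TAP1 (0.16 times its median), PSMB9 (0.13), PSMB8 (0.14), NLRC5 (0.20) and B2M (0.20). It held the lowest TAP1 and the lowest B2M of all tumors, and ERAP1 (0.28), DLA-88 (0.26) and TAP2 (0.34) were low as well without passing the rule, while PSMB10 was at 1.04 times its median. COTC022 tumor 78 was low in B2M (0.21 times), PSMB8 (0.073), PSMB9 (0.023), NLRC5 (0.22) and DLA-88 (0.14), with TAP1 at 0.76, TAP2 at 1.00 and ERAP1 at 1.16 times the median. Its PSMB9 count was 6, the only value under 10 counts among the 10 genes. The GS-1 scores of both were near the low end, -1.41 and -1.42.

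PSMB9 was also very low in COTC022 tumor 85 (0.042 times its median) and COTC021 tumor 40 (0.093 times). In tumor 40 the adjacent TAP1 was at 0.96 times its median and PSMB8 at 0.26 times. In tumor 85 they were at 0.34 and 0.22 times. When each gene was predicted by a straight line from the mean z-score of the other 9, PSMB9 in tumor 78 lay 3.42 log2 units under the line, and PSMB9 lay more than 2 units under it in 5 tumors. The only other gene with such a tumor was ERAP1, in COTC022 tumor 62. There ERAP1 was at 0.16 times its median and 2.57 units under the line, while the other 9 genes were between 0.60 and 2.10 times their medians. COTC022 tumor 61 had the lowest DLA-88, at 0.11 times the median, with B2M at 0.43 times.

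**Figure D5:**
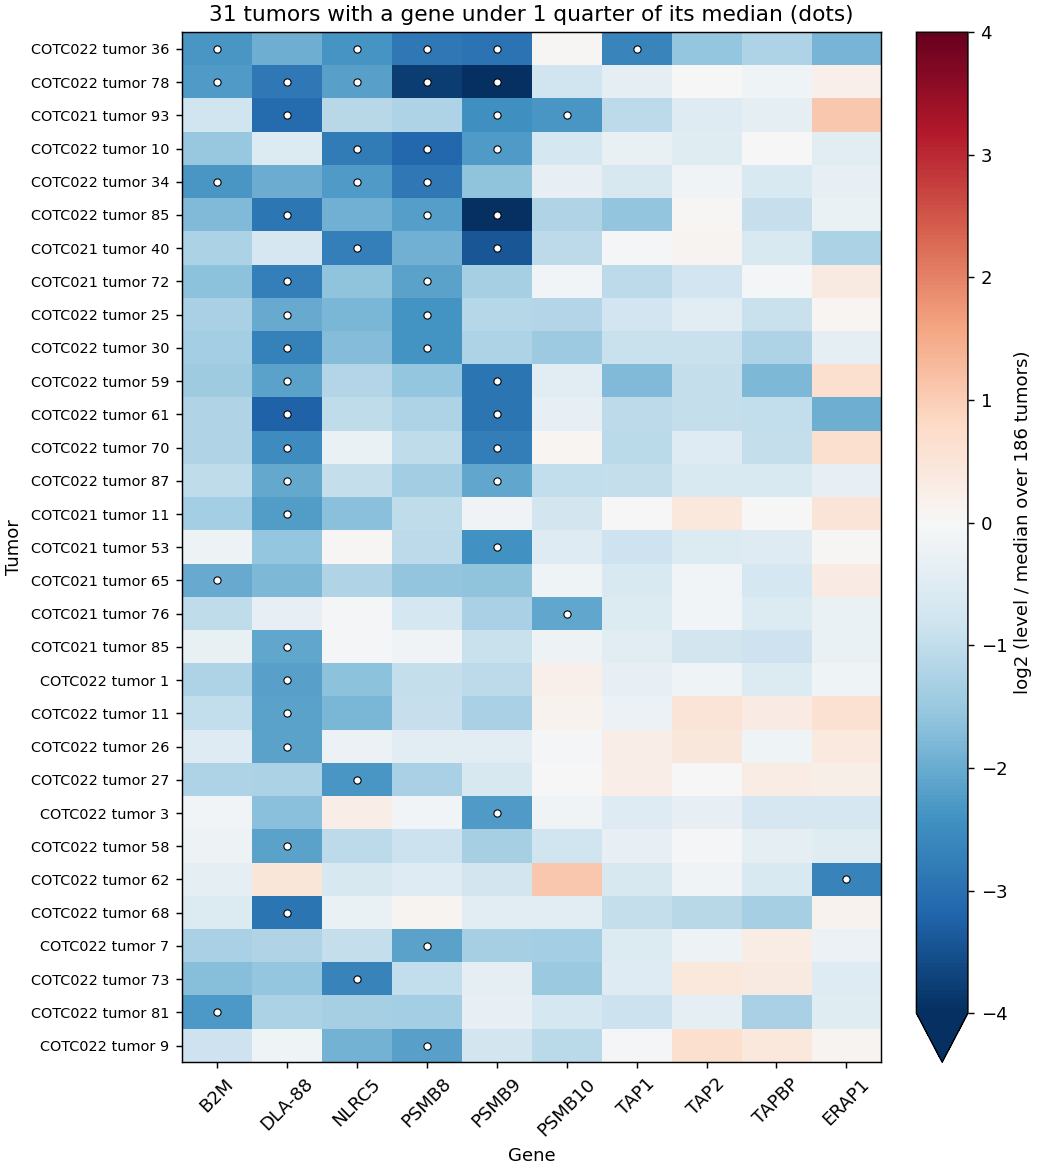
Levels of the 10 genes in the 31 tumors with at least 1 gene under 0.25 times its median, as log2 of the level over the median of 186 tumors (color, capped at the ends of the scale). White dots mark values under 0.25 times the median. Dots are gathered in the columns of DLA-88, PSMB9, PSMB8 and NLRC5, the columns of TAP2 and TAPBP have none, and COTC022 tumors 36 and 78 have 5 dots each.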

How the data were processed

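mRNA of 186 primary tumors was sequenced by the authors with a stranded TruSeq kit. Reads were trimmed with cutadapt, mapped to CanFam4 (GSD_1.0) with STAR 2.7.0f and quantified with RSEM 1.3.1, per the study's methods and processing notes. The deposited values are expected counts per gene, not normalized, which RSEM divides between genes where a read fits several (3.07% of values were not whole). They were rounded here. 12 columns of no listed sample were left out.

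Low genes were removed with filterByExpr (large.n of 5, min.prop of 0.5 and min.count of 10), and TMM normalization followed. Models were fitted over all genes with limma 3.58.1 voom in R 4.3.3, with edgeR 4.0.16 quasi-likelihood and DESeq2 1.42.0 as alternatives, two-sided, and Benjamini-Hochberg adjustment over all genes at 0.05. The fits were tested on simulated data. Scores are mean z-scores of quantile-normalized log2(CPM + 2). Correlations used log2 CPM with a prior count of 2. Intervals of 95% are normal intervals from the SE. Python 3.11.15 was used for summaries. Gene coordinates and the match of DLA-88 to its row came from RefSeq's gene table of the same build (9 symbols matched directly, 1 by synonym).

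The members and gene lists were chosen with earlier results of these data known. Named genes are the 10 members, genes of lists described, the 10 genes closest to the members' mean and the closest gene to each member. COTC022 tumors 64 and 84 were singled out after their values were seen, and so were the tumors and chromosome 12 neighbors described. Tumors are numbered within a trial in accession order. Counting error limits low values, such as PSMB9 under 10 counts.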

Additional observations from a re-analysis of the deposited data

Results flagged for a closer look

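The difference COTC022 minus COTC021 had a different value in D libraries (doubled separator in the column name) than in S libraries for 4 of the 10 genes when tested with edgeR. The value in D libraries minus that in S libraries was 1.97 log2 units for PSMB8 (adjusted p = 0.0068), 1.91 for NLRC5 (adjusted p = 0.0049), 1.42 for B2M (adjusted p = 0.015) and 1.10 for TAP1 (adjusted p = 0.038). This interaction was added after the data were seen. edgeR called 293 of 13422 genes in it, while limma called 0 (1466 at an unadjusted p under 0.05), with differences of 1.13 for PSMB8, 1.24 for NLRC5, 0.99 for B2M and 0.63 for TAP1 and adjusted p-values from 0.33 to 0.43. Without COTC022 tumor 64, edgeR called 0 of the 10 genes (110 of all genes, with 6 of the 10 at an unadjusted p under 0.05), with values of 1.63 for PSMB8, 1.41 for NLRC5, 1.12 for B2M and 1.00 for TAP1. The median over the 10 genes was 1.05 with all tumors, 0.94 without tumor 64, 0.84 without tumor 84 and 0.61 without both. The cause of the difference was not tested. Without tumor 84 edgeR called PSMB8 and NLRC5 (220 of all genes), and without both it called 0 of the 10 (43 of all genes, 4 of the 10 unadjusted). B2M and TAP1 were thus called only with both tumors in the fit, and PSMB8 and NLRC5 only with tumor 64 in it.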

How the results depend on the processing

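No paired analysis was possible because the labels give no shared replicate numbers. The trial comparison called 0 of the 10 genes in every setting tried (NLRC5 had no adjusted p in DESeq2). Over all genes it called 2 with limma, 71 with DESeq2, 129 with edgeR, 0 with library totals only, 0 in D libraries, 8 in S libraries and 0 without COTC022 tumors 64 and 84. In D libraries alone the trial difference was positive for B2M (0.57), TAP1 (0.28), TAP2 (0.043), PSMB8 (0.56), PSMB9 (0.33), NLRC5 (0.56) and DLA-88 (0.092), and that of PSMB10 was negative with edgeR (-0.0097), DESeq2 (-0.017) and in S libraries (-0.026).

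The GS-1 slope was called for 3485 genes in COTC021 alone and 3248 in D libraries alone, where PSMB5 had a slope of 0.0049. For the 10 genes, 124 slopes under other settings kept direction and call, and 6 kept direction and lost the call. The interaction of trial and score was called for 2 genes with edgeR and 28 without tumors 64 and 84, and its B2M value was -0.013 with edgeR. The D against S difference changed sign with edgeR for B2M (0.096), TAP1 (0.17) and PSMB8 (0.22), and without the 2 tumors for PSMB9 (-0.11), NLRC5 (-0.055) and DLA-88 (-0.079). The interaction of trial and library kind was called by edgeR for 4 of the 10 and 293 of all genes, without tumor 64 for 0 and 110, without tumor 84 for 2 and 220, and without both for 0 and 43. Without both, 847 genes were called on the lymphocyte score. The macrophage slope of TAP2 was 0.012 with edgeR and 0.011 without both tumors, and that of ERAP1 was -0.0097 with edgeR. The median rho over pairs was 0.50 after removal of the GS-1 score and trial. With a limit of 0.5 or 0.125 times the median, 92 or 6 tumors had a low gene. With library totals only and the limit of 0.25, 27 tumors had a low gene. DLA-88 was then low in 14 tumors, ERAP1 in 2, TAP2 in 1 and TAPBP in 0, with at most 7 genes low in a tumor. The causes were not tested. Low counts, such as 6 for PSMB9, and divided reads for DLA-88 limit the precision.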
